A study of Mus musculus with 3 samples.

Results

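The transcripts of the collagen genes were counted by cell class in whole neuroblastomas of TH-MYCN mice. The members are all gene symbols of the count tables made of Col, a number, the letter a and a number, which are 44 of 31053 symbols. Of these, 11 encode fibrillar collagens, 6 basement membrane collagens and 27 other collagens. TH-MYCN mice carry a MYCN transgene under a tyrosine hydroxylase promoter, which drives it in cells of the sympathetic lineage, and the animals used were heterozygous for it. A whole tumor was taken from each of 3 mice, which were 62, 79 and 63 days old (tumors 1, 2 and 3), and the labels put all of them in a single group. Cell classes were therefore compared within these tumors, no test was made between tumors, and age cannot be told apart from the tumor.

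Collagens are secreted as triple helices of chains, each chain from its own gene, and are the main proteins of the extracellular matrix. Fibrillar collagens pack into the fibers of connective tissue, type IV collagens form the network of basement membranes under endothelium and around pericytes, and the other types link, bead or anchor these structures. In tumors, fibroblasts and perivascular cells are the usual sources of fibrillar collagen, and vessels are wrapped in basement membrane.

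Counts are of unique molecular identifiers (UMIs), each of which marks a captured RNA molecule read at its 3′ end, so that values were not divided by gene length. A level is given in CPM, the UMIs of a gene per 1000000 UMIs of a class in a tumor, with the exact Poisson interval at 95% where it rests on few UMIs. Intervals cover counting error only. Barcodes kept by the authors numbered 1914, 1221 and 2515 in tumors 1, 2 and 3, with a median of 4282.5, 1594 and 1816 UMIs. Between 0 and 3 barcodes were shared by any 2 tumors.

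Classes were named from marker genes after the collagens had been held out of the genes used for clustering. Fibroblast-like cells numbered 21, 2 and 2 in tumors 1, 2 and 3, and perivascular-like cells 21, 3 and 9. There were 48, 23 and 38 endothelial-like cells and 404, 939 and 2080 tumor-like cells. The markers that named the classes describe them and do not test the names. The 12 fibroblast markers summed to 18944 to 24472 CPM in fibroblast-like cells and to 1235 to 2931 in perivascular-like cells. The 12 perivascular markers summed to 16358 to 19724 in perivascular-like cells and to 77.4 to 351 in fibroblast-like cells. The 12 endothelial markers reached 8219 to 10273 in endothelial-like cells, 319 to 673 in perivascular-like cells and at most 116 in fibroblast-like cells. The median depth was 18407 UMIs in fibroblast-like, 12541 in perivascular-like, 3567 in endothelial-like and 1644 in tumor-like cells.

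The kept cells held 65585 collagen UMIs, of which 44330 were fibrillar, 11839 basement membrane and 9416 other. The 58 fibroblast-like and perivascular-like cells, 1.03% of the 5650 kept cells, held 72.7% of them. Most of the collagen UMIs, 57257, were from tumor 1, and these classes held 76.6% of the collagen UMIs of tumor 1, 35.5% of those of tumor 2, where mesothelial-like cells held 47.5%, and 55.6% of those of tumor 3. Collagens made up 50325, 33069 and 50747 CPM in the fibroblast-like cells of tumors 1, 2 and 3. In perivascular-like cells they made up 47341, 27385 and 23090. Endothelial-like cells had 9715, 4795 and 5937, and tumor-like cells 378, 53.3 and 105. The ranges of the fibroblast-like and perivascular-like cells overlapped, and both lay above endothelial-like and, further below, tumor-like cells in every tumor. In single cells the collagen share of all UMIs had a median of 4.49% in fibroblast-like (0.364 to 10.8%), 4.09% in perivascular-like (0.894 to 7.39%) and 0.464% in endothelial-like cells (0 to 3.19%).

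The classes differed in the kind of collagen they held. Fibrillar genes gave 87.7, 96.1 and 89.4% of the collagen UMIs of fibroblast-like cells in tumors 1, 2 and 3. They gave 60.7, 46.5 and 55.4% in perivascular-like cells and 3.20, 2.76 and 0.519% in endothelial-like cells. Basement membrane genes gave 3.07, 1.76 and 0.272% in fibroblast-like cells, 22.2, 24.9 and 23.5% in perivascular-like cells and 79.8, 82.1 and 77.0% in endothelial-like cells. The classes thus took the same order in each of the 3 tumors with no overlap, from fibrillar in fibroblast-like cells over mixed in perivascular-like cells to basement membrane in endothelial-like cells. The fibroblast-like values of tumors 2 and 3 rest on 2 cells each. In tumor 2 these cells held 804 and 17 fibrillar and 8 and 7 basement membrane UMIs, so that 1 cell gave most of the value.

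**Figure D1:**
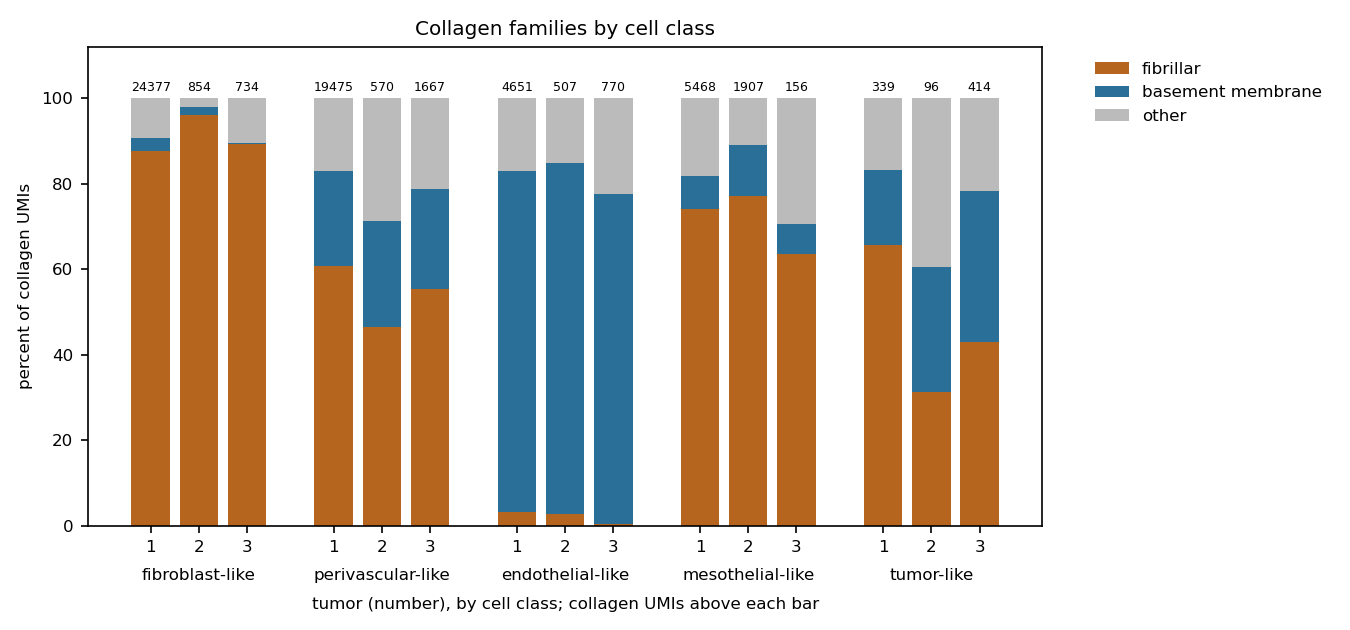
Percent of the collagen UMIs (y axis) from fibrillar, basement membrane and other collagen genes in each class and tumor (x axis), as stacked bars. The basement membrane segment grows from at most 3.07% in fibroblast-like to at least 77.0% in endothelial-like cells, with 22.2 to 24.9% in perivascular-like cells.

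The medians over single cells took the same order. Among cells with at least 20 collagen UMIs, the basement membrane share had a median of 2.57% over 25 fibroblast-like cells (0 to 25.9%), 25.7% over 33 perivascular-like cells (6.25 to 46.7%) and 82.2% over 48 endothelial-like cells (31.0 to 96.7%). The ranges overlapped between neighboring classes in this order, and did not overlap between fibroblast-like and endothelial-like cells. These cells came from 3 animals and are not replicates, so this is a description.

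**Figure D2:**
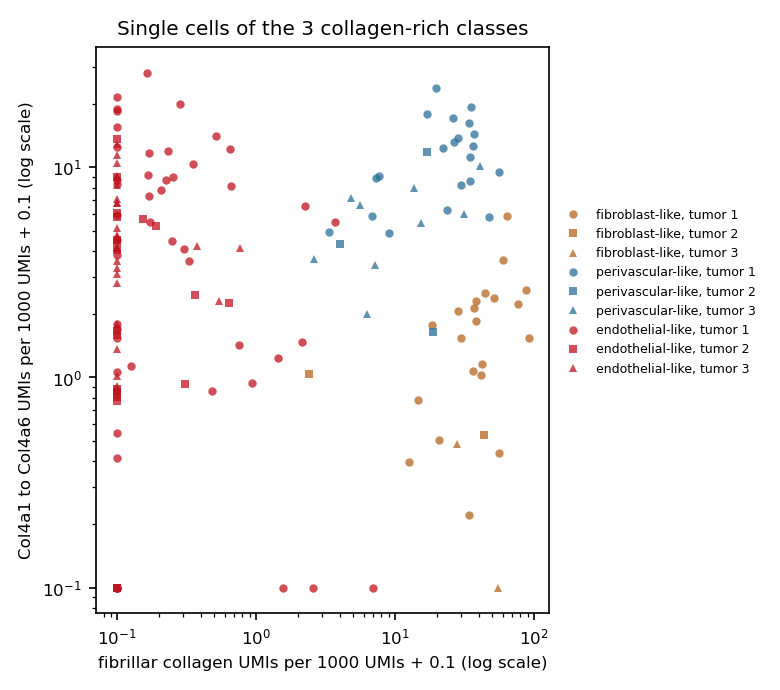
Each point is a cell, with its fibrillar UMIs per 1000 UMIs (x axis) against its type IV UMIs per 1000 UMIs (y axis), both on log axes after adding 0.1, colored by class. Fibroblast-like and perivascular-like cells share the right side and differ in their type IV level. Most endothelial-like cells lie at the upper left, and those without a type IV UMI lie at the bottom.

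The promoters of 4 members with different patterns are shown, 250 bases each before the annotated start, from RefSeq on GRCm38.p6, since these genes turned up together in a class or apart from it. Col3a1 (chr1:45311288-45311537, + strand) was highest in fibroblast-like cells, Col5a1 (chr2:27886175-27886424, + strand) was shared by fibroblast-like and perivascular-like cells, Col6a3 (chr1:90843972-90844221, - strand) was without a UMI in endothelial-like cells, and Col13a1 (chr10:61979109-61979358, - strand) was without a UMI in fibroblast-like and perivascular-like cells. Each window lies directly before its own gene and outside it, and overlap with other genes was not tested. Capitals mark matches to the TATA box core TATAAA, the CCAAT box CCAAT or the GC box GGGCGG, on either strand.
Col3a1: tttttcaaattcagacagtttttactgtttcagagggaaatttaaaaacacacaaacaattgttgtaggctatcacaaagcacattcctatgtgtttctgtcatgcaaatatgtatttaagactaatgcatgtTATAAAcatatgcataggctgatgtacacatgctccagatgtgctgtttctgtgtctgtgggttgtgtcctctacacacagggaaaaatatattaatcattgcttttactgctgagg
Col5a1: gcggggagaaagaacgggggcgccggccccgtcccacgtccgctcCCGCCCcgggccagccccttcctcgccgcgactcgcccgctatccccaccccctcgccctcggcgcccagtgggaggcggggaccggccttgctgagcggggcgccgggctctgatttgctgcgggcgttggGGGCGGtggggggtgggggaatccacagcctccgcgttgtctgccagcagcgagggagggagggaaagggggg
Col6a3: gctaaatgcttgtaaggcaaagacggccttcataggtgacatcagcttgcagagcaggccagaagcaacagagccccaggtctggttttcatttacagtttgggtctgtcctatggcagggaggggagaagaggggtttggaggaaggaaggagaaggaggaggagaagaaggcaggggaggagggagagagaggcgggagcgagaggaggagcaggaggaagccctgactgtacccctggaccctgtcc
Col13a1: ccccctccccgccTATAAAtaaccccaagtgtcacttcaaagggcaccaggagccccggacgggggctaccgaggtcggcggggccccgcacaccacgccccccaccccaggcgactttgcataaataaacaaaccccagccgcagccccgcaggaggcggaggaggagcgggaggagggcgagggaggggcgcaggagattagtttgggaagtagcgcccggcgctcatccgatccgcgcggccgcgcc
The Col3a1 window holds TATAAA with its first base 117 bases before the start, the Col5a1 window holds GGGCGG in 2 places, the Col6a3 window holds none of the 3 motifs, and the Col13a1 window holds TATAAA 237 bases before the start. TATAAA was found in 12.4% of all 32851 windows of this length, CCAAT in 33.8% and GGGCGG in 32.7%. Of 38 windows of the 35 collagen genes with an entry, 5, 13 and 22 held them. A match is a string of letters and was not tested as a site.

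The fibrillar collagens were the most abundant group. Col1a1 (ENSMUSG00000001506, chr11:94936224-94953042 on GRCm38), which encodes the main chain of type I collagen, had 12261, 10029 and 14588 CPM in the fibroblast-like cells of tumors 1, 2 and 3. In perivascular-like cells it had 12791, 3844 and 4197. In endothelial-like cells it had 64.8, 18.9 (2.29 to 68.3) and 0 (upper limit 28.4), and 21 of its 33 UMIs there were in 1 cell. Fibroblast-like cells were above perivascular-like cells in tumors 2 and 3 and slightly below them in tumor 1, and both were above endothelial-like cells in every tumor. Col1a2, the second chain of type I collagen, had 10607, 7628 and 10232 in fibroblast-like cells and 8744, 3844 and 4141 in perivascular-like cells, and followed the same order except that fibroblast-like cells were higher in all 3 tumors.

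Col3a1 (ENSMUSG00000026043, chr1:45311538-45349706), the chain of type III collagen of vessel walls and other pliable tissues, had 18262, 12507 and 17008 CPM in fibroblast-like cells. In perivascular-like cells it had 4419, 3796 and 3449, so that the 2 classes did not overlap. In endothelial-like cells it had 64.8, 28.4 (5.85 to 82.9) and 7.71 (0.195 to 43.0). By edgeR's quasi-likelihood test with the class as the only term, the log2 fold change of Col3a1 from perivascular-like to fibroblast-like cells was 2.43 ± 1.78 (SE), with a Benjamini-Hochberg adjusted p of 1, so that the difference between the classes was not called. It was 0.82 ± 0.80 with the tumor as a block (edgeR adjusted p 0.89). Col3a1 made up 59.8, 55.5 and 53.8% of the summed Col3a1 and Col1a1 UMIs of fibroblast-like cells and 25.7, 49.7 and 45.1% of those of perivascular-like cells.

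**Figure D3:**
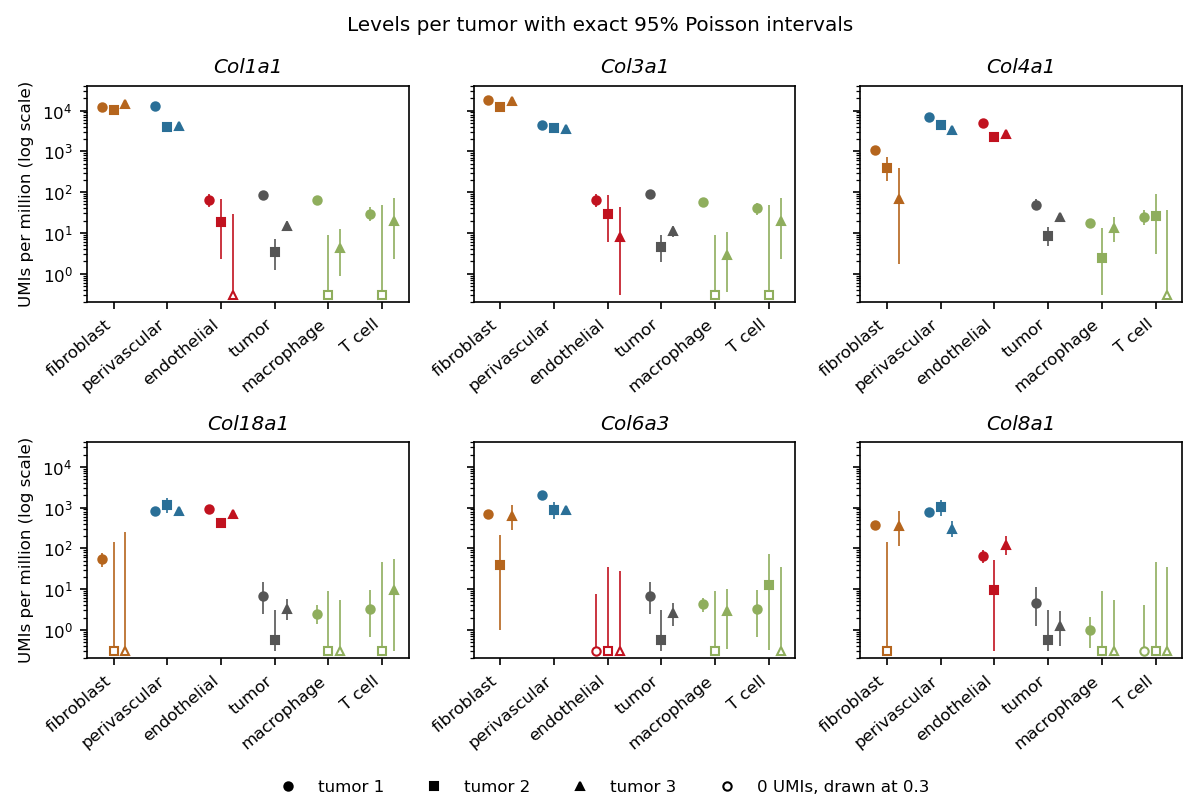
CPM, UMIs per 1000000, (log y axis) of Col1a1, Col3a1, Col4a1, Col18a1, Col6a3 and Col8a1 in each tumor and class (x axis), with exact Poisson intervals at 95% as bars and sums of 0 UMIs as open markers at 0.3. Col6a3 is at 0 in the endothelial-like cells of all 3 tumors, whereas Col4a1 is at 2185 to 5072 there.

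The type V chains, which help to start type I fibrils and limit their width, were carried by the same 2 classes at lower levels. Col5a1 had 1018, 542 and 1521 CPM in fibroblast-like and 1016, 432 and 263 in perivascular-like cells. Col5a2 had 1451, 852 and 1452 in fibroblast-like and 1125, 577 and 471 in perivascular-like cells, and was the fibrillar gene with the highest level in endothelial-like cells of tumor 1, at 89.8. Col5a3 had 479, 232 and 138 in fibroblast-like and 586, 192 and 235 in perivascular-like cells. Col5a1 and Col5a2 were higher in fibroblast-like cells in all 3 tumors, by little in tumor 1, while Col5a3 was higher in perivascular-like cells in tumors 1 and 3. The other fibrillar genes were rare: Col24a1 had 15 UMIs in 4 fibroblast-like cells of tumor 1, Col27a1 had 13, 15 and 12 UMIs in fibroblast-like, perivascular-like and endothelial-like cells, and Col11a1 had 6 UMIs in 1 fibroblast-like cell of tumor 3 and 16 in 2 perivascular-like cells of tumor 1.

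The type IV chains showed the reverse. Col4a1 (ENSMUSG00000031502, chr8:11198423-11312826, - strand) and Col4a2 (ENSMUSG00000031503, chr8:11312805-11449287, + strand) lie head to head with overlapping starts, and their products join in the type IV collagen found in nearly all basement membranes. Col4a1 had 7086, 4324 and 3407 CPM in the perivascular-like cells of tumors 1, 2 and 3. In endothelial-like cells it had 5072, 2185 and 2622, a mean of 3293 ± 1556 (SD, n = 3). In fibroblast-like cells it had 1063, 387 (186 to 712) and 69.1 (1.75 to 385), below both other classes in every tumor. Col4a2 had 3376, 2498 and 1953 in perivascular-like, 2672, 1749.6 and 1951 in endothelial-like and 456, 194 (62.9 to 452) and 0 (upper limit 255) in fibroblast-like cells.

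The 2 genes kept a similar ratio across classes. Col4a1 gave 67.7, 63.4 and 63.6% of their summed UMIs in perivascular-like cells and 65.5, 55.5 and 57.3% in endothelial-like cells. It gave 70.0 and 66.7% in fibroblast-like cells of tumors 1 and 2, the latter from 15 UMIs. Both genes were found in 33, 13 and 25 endothelial-like cells of tumors 1, 2 and 3, out of 38, 16 and 26 with Col4a1. The remaining type IV genes were rare in the 4 classes: Col4a5 had 36 UMIs there, Col4a4 and Col4a6 had 5 each, and Col4a3 had none. Most of their UMIs lay in other classes, since all kept cells held 150 of Col4a5, 23 of Col4a4, 45 of Col4a6 and 8 of Col4a3.

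Col18a1 and Col15a1, which encode the proteoglycan collagens of the basement membrane zone, sided with type IV. Col18a1, the source of endostatin, had 802, 1153 and 817 CPM in perivascular-like and 934, 426 and 702 in endothelial-like cells. In fibroblast-like cells it had 53.7 (35.1 to 78.6), 0 (upper limit 143) and 0 (upper limit 255), below both other classes in every tumor. Col15a1 had 1332, 1153 and 526 in perivascular-like, 595, 199 and 378 in endothelial-like and 376, 38.7 (0.980 to 216) and 0 in fibroblast-like cells, and perivascular-like cells were highest in every tumor.

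The type VI genes, whose products form beaded filaments near the cell surface, were absent or nearly so from endothelial-like cells. Col6a1 had 603, 194 and 968 CPM in fibroblast-like and 899, 817 and 776 in perivascular-like cells. Col6a2 had 491, 38.7 (0.980 to 216) and 829.6 in fibroblast-like and 751, 1201 and 762 in perivascular-like cells. Col6a3, the longest of these chains, had 685, 38.7 (0.980 to 216) and 622 in fibroblast-like and 2059, 865 and 859 in perivascular-like cells. Perivascular-like cells had the higher level of Col6a3 in every tumor, and the ranges of the classes for Col6a1 and Col6a2 overlapped. In endothelial-like cells, Col6a3 had no UMI in 714177, Col6a1 had 5 and Col6a2 had 3. Col6a3 was at least 438-fold higher in perivascular-like and at least 155-fold higher in fibroblast-like than in endothelial-like cells, with 3 counts over the endothelial-like cells of all tumors as the floor.

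Col6a5 and Col6a6 encode alternatives to the Col6a3 chain. Of the 198 Col6a5 and 99 Col6a6 UMIs of kept cells, 118 and 50 lay in the 4 classes, and 111 and 44 in fibroblast-like cells. Without thinning, mesothelial-like cells had Col6a5 in 50% and Col6a6 in 66.7% of 24 cells, against 16 and 48% of fibroblast-like cells. The median depth of these classes was 24558 and 18407 UMIs. Thinned to the same depth, 0% of mesothelial-like (upper limit 14.2%) and 8% of fibroblast-like cells (0.984 to 26.0%) had Col6a5. Col6a6 was then found in 4.17% (0.105 to 21.1%) and 4% (0.101 to 20.4%). These intervals overlapped, so a wider detection in mesothelial-like cells was not seen at the same depth. Col6a5 had 229, 0 and 0 CPM in fibroblast-like cells and 0, 0 and 55.4 (15.1 to 142) in perivascular-like cells. Its 111 UMIs in fibroblast-like cells lay in 4 of 25 cells, of which the highest held 45 and the next 38. Col6a6 had 88.8, 38.7 (0.980 to 216) and 0 in fibroblast-like cells and 0, 0 and 55.4 (15.1 to 142) in perivascular-like cells, with its 44 fibroblast-like UMIs in 12 cells. For both genes, the perivascular-like UMIs of tumor 3 were 4 UMIs in 1 cell.

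Collagens that coat fibrils were, like most fibrillar genes, far lower in endothelial-like than in fibroblast-like and perivascular-like cells when pooled over tumors. Col14a1, which encodes a fibril-associated collagen of dense connective tissue, had 1391, 194 and 1383 CPM in fibroblast-like and 887, 1201 and 526 in perivascular-like cells, and 1 UMI in endothelial-like cells, 951-fold less than in fibroblast-like cells (interval 170 to 37634). Col12a1 had 182, 38.7 (0.980 to 216) and 1106 in fibroblast-like and 367, 384 and 125 in perivascular-like cells. Col16a1 had 111, 38.7 (0.980 to 216) and 0 in fibroblast-like and 72.9, 48.0 (1.22 to 268) and 69.3 (22.5 to 162) in perivascular-like cells. None of the 3 genes kept the same order of fibroblast-like and perivascular-like cells in every tumor.

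Col8a1, a short-chain collagen of vessel walls, had UMIs in each of the 3 stromal and vessel classes. It had 766, 1009 and 305 CPM in perivascular-like, 384, 0 (upper limit 143) and 346 in fibroblast-like and 64.8, 9.46 (0.239 to 52.7) and 123 in endothelial-like cells. Its 191 fibroblast-like UMIs lay in 10 of 25 cells, with 75 and 63 in the highest cells. The endothelial-like level was below the perivascular-like one in every tumor.

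**Figure D4:**
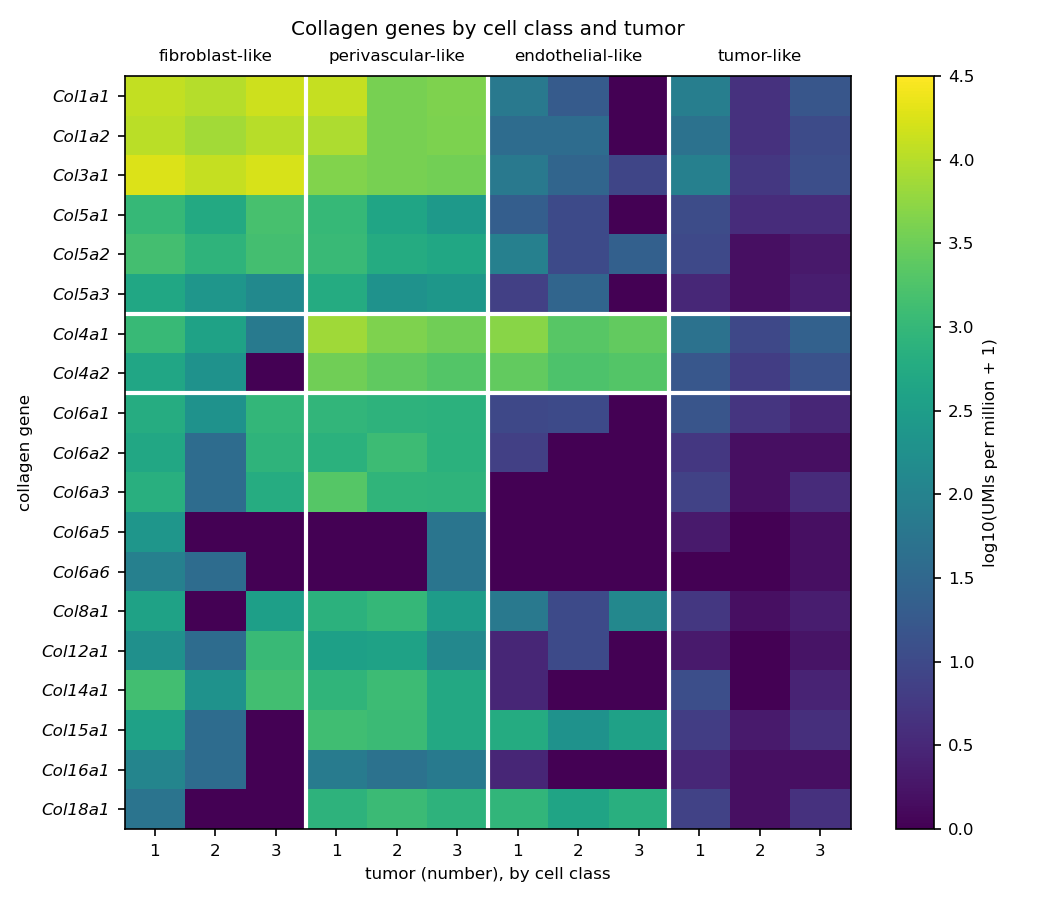
Heat map of log10 of CPM (UMIs per 1000000) plus 1 for the 19 collagen genes with at least 50 UMIs in the 4 classes (y axis), in each class and tumor (x axis). The type IV genes, Col15a1 and Col18a1 are high in perivascular-like and endothelial-like cells. The fibrillar genes, Col6a1, Col6a2 and Col6a3 are high in fibroblast-like and perivascular-like cells, which does not hold for Col6a5 and Col6a6.

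The other 25 members had 0 to 48 UMIs each in the 4 classes, 334 in all, and 3 of them had none. Most were too rare for a comparison, but some were held by a single one of the 4 classes, or nearly so. Col13a1, a collagen that spans the cell membrane, had 39.7 (23.9 to 62.0), 75.7 (32.7 to 149) and 123 (70.5 to 200.3) CPM in endothelial-like cells, from 43 UMIs in 17 cells. It had 4 UMIs in tumor-like cells and none in fibroblast-like or perivascular-like cells. Col13a1 was thus at least 10.5-fold and 10.1-fold higher in endothelial-like than in fibroblast-like and perivascular-like cells. Col10a1, known from growing cartilage, had 48 UMIs in the 4 classes, all in perivascular-like cells of tumor 1, and 37 of them in 1 cell. Col28a1, known from peripheral nerve, had 15 of its 22 UMIs of kept cells in 8 fibroblast-like cells and none in the other 3 classes. Its remaining UMIs lay outside the 4 classes. Col8a2 had 8 UMIs in fibroblast-like cells and none in the other 3 classes. In tumor-like cells, Col9a3 had 19 UMIs, a pooled 2.86 CPM. Col25a1, Col9a1, Col19a1 and Col9a2 had 6, 5, 2 and 1 UMIs there. These 5 genes had no UMI in the other 3 classes, and none of them passed the filter on low counts of the test below.

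Of the 19 members with at least 50 UMIs, 10 were highest in perivascular-like and 9 in fibroblast-like cells, both by the level pooled over tumors and by the mean over tumors. Col12a1 was highest in perivascular-like cells when pooled and in fibroblast-like cells by the mean, and Col16a1 the reverse.

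Differences between classes were tested with edgeR's quasi-likelihood test on counts summed per tumor and class, over 12049 genes and with the class as the only term. Of the 44 members, 26 passed its filter on low counts, the 19 above among them. A member passes through the class where it is high, so the counts below are read only beside the share of all genes called. The fibroblast-like class entered with the sum of tumor 1 alone, whose spread is taken to be that of the other classes, and the perivascular-like class with those of tumors 1 and 3. Because the classes of a tumor share its animal, collagen genes whose call changes when the tumor is a block in the fit are named. Genes used for clustering may vary along with collagens, so that the p values depend on the choice of classes.

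Between fibroblast-like and perivascular-like cells, none of the 26 members was called in either direction (all genes: 0.423% higher in fibroblast-like and 0.108% higher in perivascular-like cells). At an unadjusted p under 0.05 there were 2 higher and 3 lower members, and DESeq2 called 0. With the tumor as a block, Col6a5 and Col6a6 were called higher in fibroblast-like cells (1.49% of all genes), and Col4a1, Col4a2, Col18a1 and Col10a1 higher in perivascular-like cells (1.01% of all genes). The log2 fold change from perivascular-like to fibroblast-like cells with the block was -3.99 ± 0.73 for Col18a1 (edgeR adjusted p 0.000427) against -3.68 ± 1.16 without it (adjusted p 0.25). With the block it was -2.63 ± 0.74 for Col4a1 (edgeR adjusted p 0.0416) against -2.13 ± 1.38 (adjusted p 1). For Col4a2 it was -2.71 ± 0.73 with the block (edgeR adjusted p 0.0292) against -2.36 ± 1.29 (adjusted p 0.953). Col6a5 had 5.36 ± 1.12 with the block (edgeR adjusted p 0.00282) against 4.29 ± 1.25 (adjusted p 0.22), and Col6a6 5.26 ± 1.19 (adjusted p 0.00773) against 2.84 ± 1.57 (adjusted p 0.983). Col10a1 was without a UMI in fibroblast-like cells and at least 16.6-fold higher in perivascular-like cells. The fold of Col1a1, Col1a2, Col5a1, Col5a2 and Col5a3 between these classes had an SE of 0.86 to 1.75 without the block, larger than the fold itself. With the block, the direction of Col1a1, Col1a2 and Col5a3 turned, to a log2 of -0.39, -0.10 and -0.080.

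**Figure D5:**
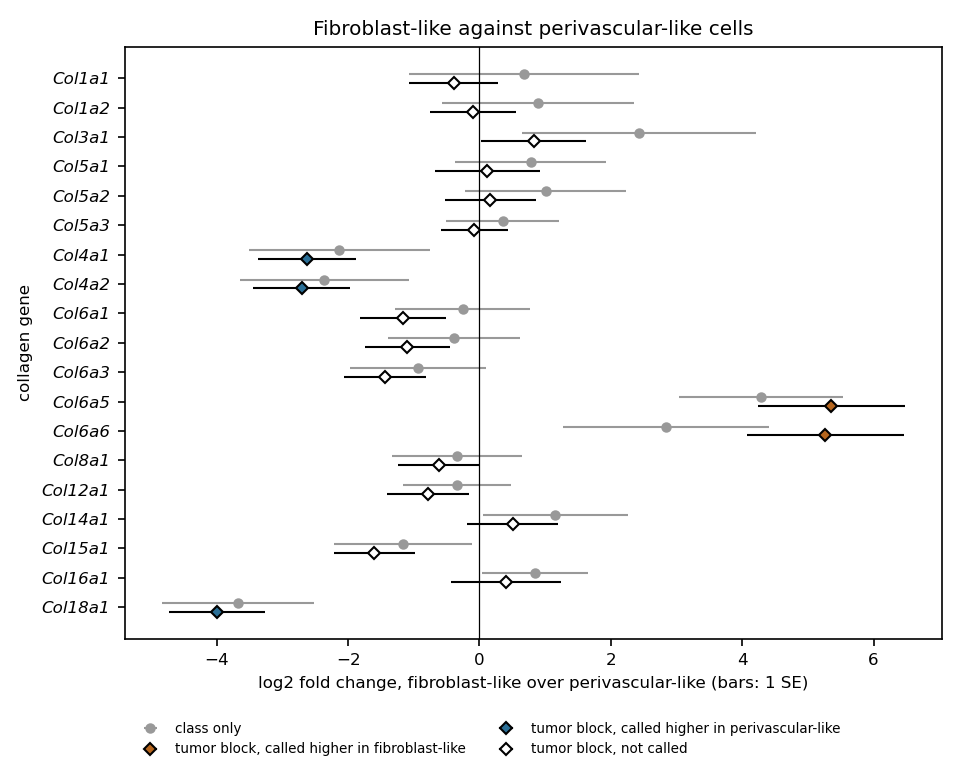
Log2 fold change of fibroblast-like over perivascular-like cells (x axis) for the 19 members with at least 50 UMIs in the 4 classes (y axis). Bars are the SE, from the fit with the class as the only term and from the fit with the tumor as a block. Col10a1 is not drawn. The values of Col18a1, -3.68 and -3.99, lie close together while the SE falls from 1.16 to 0.73.

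Between fibroblast-like and endothelial-like cells, 14 members were called higher in fibroblast-like cells (2.95% of all genes) and none lower (0.946% of all genes). The 14 were the 6 fibrillar genes with at least 50 UMIs, Col6a1, Col6a2, Col6a3, Col6a5, Col6a6, Col12a1, Col14a1 and Col16a1. The log2 fold change was 9.33 ± 1.88 for Col3a1 (edgeR adjusted p 0.00351), 8.93 ± 1.80 for Col1a1 (adjusted p 0.00351) and 6.88 ± 1.07 for Col6a1 (adjusted p 0.000283). Without tumor 3, Col1a1, Col3a1, Col5a2 and Col6a6 lost their call, and without tumor 2 Col5a2 and Col6a6 did. With the tumor as a block, 16 members were higher (4.98% of all genes) and 4 lower (3.35% of all genes). The additional higher members were Col8a1 and Col24a1. The 4 lower members were Col4a1, Col4a2, Col18a1 and Col13a1, of which 2 had an unadjusted p under 0.05 without the block and DESeq2 called 0. Their log2 fold change from endothelial-like to fibroblast-like cells was -2.22 ± 0.72 for Col4a1 (edgeR with the block, adjusted p 0.0445), -2.68 ± 0.74 for Col4a2 (adjusted p 0.013) and -3.96 ± 0.73 for Col18a1 (adjusted p 0.000131). Without the block they were -1.21 ± 1.26, -1.78 ± 1.21 and -3.24 ± 1.11, with edgeR adjusted p values of 0.864, 0.678 and 0.135.

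Between perivascular-like and endothelial-like cells, 14 members were called higher in perivascular-like cells (1.79% of all genes) and 1, Col13a1, higher in endothelial-like cells (1.0% of all genes). The 14 were again the 6 fibrillar genes and Col6a1, Col6a2, Col6a3, Col12a1, Col14a1 and Col16a1, with Col8a1 and Col10a1 in addition. The log2 fold change was 8.15 ± 1.43 for Col1a2 (edgeR adjusted p 0.00128), 6.90 ± 1.66 for Col3a1 (adjusted p 0.0196) and 3.31 ± 0.78 for Col8a1 (adjusted p 0.0217). Leaving out tumor 1, 2 or 3 left 9, 9 and 5 higher members, and none of these 3 fits called Col13a1. Col8a1 lost its call in each of these fits, Col3a1, Col5a1, Col5a2 and Col10a1 without tumor 2 and without tumor 3, Col1a1, Col1a2, Col14a1 and Col16a1 without tumor 3, and Col5a3 without tumor 1. Col10a1, Col12a1 and Col16a1 did not pass the filter on low counts without tumor 1 and were not tested there. The basement membrane members were not called: the log2 fold change was 0.92 ± 0.91 for Col4a1 (edgeR adjusted p 0.953), 0.58 ± 0.84 for Col4a2 (adjusted p 1) and 0.43 ± 0.70 for Col18a1 (adjusted p 1). With the tumor as a block, Col4a5 and Col11a1 were also called higher in perivascular-like cells (3.73% of all genes).

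Against tumor-like cells, 22 members were called higher in fibroblast-like cells (9.33% of all genes) and 20 in perivascular-like cells (8.78% of all genes). None was called higher in tumor-like cells in either comparison (0.855 and 1.26% of all genes), and 0 had an unadjusted p under 0.05 in that direction with edgeR or DESeq2. With the tumor as a block, Col6a5 and Col6a6 were also called higher in perivascular-like cells (11.2% of all genes). Without tumor 1, 15 of the 16 members then tested were called higher in perivascular-like cells. Without tumor 3, Col18a1 and Col24a1 lost their call in fibroblast-like cells and Col3a1 in perivascular-like cells, and Col24a1 did without tumor 2. Fibroblast-like cells were higher than tumor-like cells by a log2 of 9.13 ± 1.29 for Col5a2 (edgeR adjusted p 2.11e-05) and 8.51 ± 1.02 for Col6a2 (adjusted p 3.83e-06).

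Endothelial-like cells had 9 members higher than tumor-like cells (9.0% of all genes), which were Col4a1, Col4a2, Col4a5, Col5a2, Col8a1, Col13a1, Col15a1, Col18a1 and Col27a1. The log2 fold change was 6.70 ± 1.06 for Col4a1 (edgeR adjusted p 8.6e-05), 7.28 ± 1.01 for Col4a2 (adjusted p 2.07e-05) and 7.39 ± 0.85 for Col18a1 (adjusted p 4.38e-06). Without tumor 3, Col5a2, Col8a1, Col13a1, Col27a1 and Col4a5 lost their call, which left 4. Without tumor 2, Col4a5 and Col5a2 lost it, which left 7. Without tumor 1, 7 were also left, since Col4a5 and Col27a1 did not pass the filter on low counts and were not tested. None was called higher in tumor-like cells (1.68% of all genes), with 0 at an unadjusted p under 0.05 by edgeR and by DESeq2, and Col6a3 was called there with the tumor as a block (edgeR adjusted p 0.0499, 12.1% of all genes), from 17 UMIs in tumor-like and 0 in endothelial-like cells. Col1a1 and Col3a1 differed by a log2 of -0.19 ± 1.31 and -0.04 ± 1.36 between endothelial-like and tumor-like cells, and were not called (edgeR adjusted p 0.954 and 1). Their direction turned under other processing.

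A median log2 fold change was taken over the tested members that had more than 3 UMIs in either class and, for those at 0 in a class, a bound. Over 24 members each, it was -0.08 between fibroblast-like and perivascular-like cells, 5.5 between fibroblast-like and endothelial-like cells and 4.42 between perivascular-like and endothelial-like cells. It was 0 over all genes in each of these comparisons. The fitted values of all 26 members had medians of -0.13, 6.17 and 5.81. Against tumor-like cells the medians were 7.82 and 7.72 over 23 members for fibroblast-like and perivascular-like cells and 2.12 over 18 members for endothelial-like cells, where those of all genes were -0.32, -0.26 and -0.31. The fitted values of all 26 members had medians of 7.51, 7.73 and 0.76.

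Collagens were rare in tumor-like cells, and their levels are set beside those of immune cells. Whether the immune cells express collagen was not tested, so their levels are not a blank. Droplets take up free RNA, which gives UMIs to cells that do not express a gene. Collagens made up 378, 53.3 and 105 CPM in tumor-like, 234, 19.3 and 60.0 in macrophage-like and 176, 63.7 and 107 in T cell-like cells of tumors 1, 2 and 3. Tumor 1 was highest in each of the 3 classes, and it also held 21 of the 25 fibroblast-like and 21 of the 33 perivascular-like cells. The part of free RNA in the levels of tumor-like cells was not tested.

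Each cell was then thinned to 500 UMIs to compare shares of cells at the same depth. In tumor 1, Col1a1 was found in 8.42% of 404 tumor-like cells (exact interval 5.90 to 11.6%, median depth 954 UMIs), 3.21% of 654 macrophage-like cells (2.0 to 4.87%, 8399 UMIs) and 3.14% of 159 T cell-like cells (1.03 to 7.19%, 4854 UMIs). Unthinned, Col1a1 was found in 15.1% of the tumor-like, 21.7% of the macrophage-like and 15.7% of the T cell-like cells of tumor 1. The tumor-like share was thus the lowest without thinning. After thinning, the tumor-like share of tumor 1 lay above the macrophage-like one, and its interval overlapped that of T cell-like cells. The order of these classes therefore depended on the thinning. In tumors 2 and 3, Col1a1 was found in 0 and 0.385% of tumor-like cells, and in 0 of 111 and 0 of 201 macrophage-like cells, which allows a share of up to 2.70 and 1.49% at 3 cells (exact upper limits 3.27 and 1.82%). A difference was not detectable at this number of cells. Col4a1 was found in 5.45, 0.745 and 1.20% of tumor-like cells in tumors 1, 2 and 3, against 1.38, 0 and 0.995% of macrophage-like cells, with intervals of 3.44 to 8.13% and 0.631 to 2.60% in tumor 1. In T cell-like cells of tumor 1 it was found in 3.14% (1.03 to 7.19%), which overlapped the tumor-like interval. Unthinned, Col4a1 was found in 43 of 404 tumor-like cells, 13.5% of 654 macrophage-like cells and 11.3% of 159 T cell-like cells of tumor 1. The fibroblast markers summed to 129 CPM in the tumor-like cells of tumor 1 and to 100.4 and 94.1 in tumors 2 and 3, with 11, 8 and 11 of 12 detected and Pdgfra at 0 in all 3.

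Over all tumors, thinned endothelial-like cells had Col1a1 in 1.83% of 109 cells, but Col4a1 in 49.5% (39.8 to 59.3%) and Col18a1 in 19.3% (12.3 to 27.9%). In thinned fibroblast-like and perivascular-like cells, Col1a1 was found in 92.0 and 84.8%, Col4a1 in 36.0 and 87.9% and Col6a3 in 20 and 54.5%.

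Genes that process collagen chains were also called between classes. Of 17 tested genes for modification and folding in the endoplasmic reticulum, edgeR called 14 higher in fibroblast-like (9.33% of all genes), 12 in perivascular-like (8.78%) and 5 in endothelial-like than in tumor-like cells (9.0%), and none lower. These were 14, 15 and 9 with the tumor as a block, where 13.5% of all genes were higher in endothelial-like cells. Serpinh1, the collagen chaperone, had 2428 CPM in fibroblast-like cells of tumor 1, 2030 and 1371 in perivascular-like cells of tumors 1 and 3, 861, 255 and 671 in endothelial-like cells and 30.1, 0.555 and 10.1 in tumor-like cells. Between fibroblast-like and endothelial-like cells 5 of the 17 were called higher (2.95% of all genes), Plod2, P4ha1, P3h1, P3h3 and Crtap. All of these but Crtap hydroxylate lysine or proline. Between perivascular-like and endothelial-like cells none was called without the block, and 5 were higher (3.73% of all genes) and 1 lower (2.66%) with the tumor as a block.

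Of 9 tested genes for trimming and crosslinking, 8 were called higher in fibroblast-like (2.95% of all genes) and 7 in perivascular-like (1.79%) than in endothelial-like cells. Lox, which starts the crosslinks of collagen fibers, had 731 CPM in fibroblast-like cells of tumor 1, 299 and 208 in perivascular-like cells of tumors 1 and 3 and 4.18, 0 and 0 in endothelial-like cells (log2 fold change fibroblast-like over endothelial-like 8.42 ± 0.87, edgeR adjusted p 1.48e-05). Pcolce2, an enhancer of the trimming of fibrillar chains, had 165 in fibroblast-like cells and no UMI in perivascular-like or endothelial-like cells. It was the gene of this list called higher in fibroblast-like than in perivascular-like cells (0.423% of all genes).

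Of 8 tested collagen receptors, Ddr2 and Mrc2, 2 genes, were called higher in fibroblast-like than in endothelial-like cells (2.95% of all genes). In perivascular-like cells 4 were called higher (1.79%), Ddr2, Mrc2, Itga1 and Itga10. The fit with the tumor as a block also called 1 receptor lower in each of these comparisons (3.35 and 2.66% of all genes). It called 1 lower in fibroblast-like than in perivascular-like cells (1.01% of all genes). Itga1, a subunit of the integrin receptor for type IV and type I collagen, had 1573 and 789.5 CPM in perivascular-like cells of tumors 1 and 3, 111 in fibroblast-like cells of tumor 1 and 159, 378 and 139 in endothelial-like cells. Of 14 tested basement membrane partners, 8 were called higher in fibroblast-like (9.33% of all genes), 10 in perivascular-like (8.78%) and 10 in endothelial-like (9.0%) than in tumor-like cells. Against endothelial-like cells, 1 was higher and 1 lower in fibroblast-like cells (2.95 and 0.946% of all genes). With the tumor as a block these were 1 and 3 (4.98 and 3.35%). None was called in perivascular-like cells (1.79% of all genes higher and 1.0% lower). With the block 1 was higher and 3 lower there (3.73 and 2.66%). Between fibroblast-like and perivascular-like cells only Lama5 of these 14 was called by edgeR, lower in fibroblast-like cells (0.108% of all genes). Lama5, a laminin chain of vessel basement membranes, had no UMI in fibroblast-like cells. It had 82.6 and 111 in perivascular-like cells of tumors 1 and 3 and 89.8, 18.9 and 100.2 in endothelial-like cells. Sparc, a collagen-binding protein, was high in all 3 classes, at 14040 in fibroblast-like cells, 8729 and 7964 in perivascular-like cells and 5028, 3064 and 5914 in endothelial-like cells.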

How the data were processed

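Single-cell RNA of 3 TH-MYCN tumors was analysed, from Chromium 3′ libraries. The authors deposited raw counts of UMIs per gene and barcode, for which the submitters' processing notes name Cell Ranger 3.1.0 and the build mm10. They also deposited normalized values, which are corrected counts plus 1 on a natural log scale, made with Seurat 3.1.5 once ambient RNA, doublets and barcodes beyond limits chosen per tumor had been taken out. The barcodes of the normalized values defined the kept cells, and all other results come from the raw counts. No further doublets were called.

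Clustering used Seurat 5.3.0 in R 4.3.3 on 2000 variable genes, with 100 collagen and related genes held out, after integration on 30 dimensions and with the resolution set to 1. To be named, a cluster needed 3 or more markers of a type, each raised 2-fold or more over other cells and seen in 10% of the cluster. Stromal cells were clustered again without integration. Sums of counts over each class of a tumor needed at least 10 cells, or 5 for fibroblast-like and perivascular-like cells, and there were 27 sums of 12 classes. These were compared with edgeR 4.0.16 (filter on low counts, TMM factors, quasi-likelihood test), with Benjamini-Hochberg adjustment over all genes and a threshold of 0.05. The SE is the absolute log2 fold change divided by the square root of F. Collagen genes with at least 50 UMIs in the 4 classes are named with all values. Others are named where a class held them alone or a test called them, chosen after their values were seen.

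The members and lists were chosen with earlier results of these data known. Classes of a tumor share their mouse and are paired by it. Their deviations from class means correlated by 0.0153 to 0.619 between classes of the same tumor (median 0.279, 45 pairs) and by -0.453 to 0.235 between tumors (median -0.223, 90 pairs). Coordinates are from GENCODE M21 on GRCm38, the assembly that mm10 also names. Alternatives were DESeq2 1.42.0, no filter on low counts, the tumor as a block, leaving out each tumor, the authors' corrected counts, other minimum cell numbers and other clusterings.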

Additional observations from a re-analysis of the deposited data

Results flagged for a closer look

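Barcodes that the authors did not keep held collagen as well. Collagens made up 11629 CPM in the barcodes not kept of tumor 1, 173.9 in those of tumor 2 and 382 in those of tumor 3, against 4534, 1464 and 828 in the kept cells. These values stand out as signal in barcodes that no comparison above used. In tumor 1 the barcodes not kept had the higher level, and in tumors 2 and 3 the kept cells did. The barcodes not kept had a median mitochondrial share of 27.9, 35.0 and 37.7% of UMIs, against 3.17, 3.13 and 2.44% in kept cells. Whether their collagen came from damaged stromal cells or from free RNA was not tested.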

How the results depend on the processing

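Depth and cell number limit the results: the fibroblast-like class rests on 25 cells, 21 of them from tumor 1. Of 12 counts of called members, clustering at a resolution of 0.5 moved none by more than 1.5 times. It could hardly do so, since it again gave 25 fibroblast-like and 33 perivascular-like cells and 107 instead of 109 endothelial-like cells. Over all alternatives, 21 values of these counts moved by more than 1.5 times or to or from 0, and 105 did not. Of the values of called log2 fold changes recomputed under the alternatives, 737 kept their direction and their side of the threshold, 57 fell below it, with 14 of these under DESeq2 and 22 without tumor 3, and none reversed. Of 187 values of the log2 fold changes given above that were not called, 158 stayed so, 12 passed the threshold, 8 of them with the block, and 17 turned direction. From perivascular-like to fibroblast-like cells, these were Col1a1 (-0.39), Col1a2 (-0.10) and Col5a3 (-0.080) with the block, Col1a1 (-0.0283) and Col5a3 (-0.26) with at least 20 cells a sum (10 for stromal classes), and Col5a3 with at least 2 stromal cells (-0.20) and on leaving out a tumor (-0.23 to 0.36). From tumor-like to endothelial-like cells, Col3a1 and Col1a1 turned without the filter on low counts (0.23 and 0.0935), with at least 20 cells a sum (0.16 and 0.0244), at a resolution of 0.5 (0.10 and 0.0139) and without integration (1.42 and 0.87), and Col3a1 also with the corrected counts (0.20) and on leaving out a tumor (-0.47 to 1.16). With the tumor as a replicate block, members called higher in fibroblast-like than in perivascular-like cells went from 0 to 2 and in the other direction from 0 to 4, those higher in endothelial-like than in fibroblast-like cells from 0 to 4, and those higher in tumor-like than in endothelial-like cells from 0 to 1. The block ended no call of a collagen gene. DESeq2 called 7 members higher in fibroblast-like and 8 in perivascular-like than in endothelial-like cells, and 0 in the reverse of the latter. It gives no adjusted p for any called fold of Col1a1 and Col3a1 and for some or all of Col6a6, Col10a1, Col13a1, Col24a1 and Col27a1, which are left out of the counts of lost calls. Without the filter on low counts, 1 member (Col6a5) was higher in fibroblast-like than in perivascular-like cells and 1 (Col13a1) higher in endothelial-like than in fibroblast-like cells. The latter count was 2 without integration (Col13a1 and Col18a1). Leaving out a tumor gave 5 to 9 members higher in perivascular-like than in endothelial-like cells, 0 in reverse, and 4 to 7 higher in endothelial-like than in tumor-like cells. Col13a1 was also not called above perivascular-like cells with the authors' corrected counts or at least 20 cells a sum, where the count was 0. Without tumor 1 no fibroblast-like sum was left, so its comparisons could not be fitted. Sums of at least 2 stromal cells, an alternative chosen after seeing the data, gave 1 member higher in perivascular-like than in fibroblast-like cells (Col18a1, edgeR adjusted p 0.0049) and 2 higher in endothelial-like than in fibroblast-like cells. The cause of these changes was not tested. With the corrected counts, 18 of 51 levels moved by more than the spread between tumors, and without thinning 45 of 57 shares moved.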

Other observations

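Mesothelial-like cells, which line body cavities, numbered 16, 5 and 3 in tumors 1, 2 and 3 and held 9.55, 47.5 and 3.61% of the collagen UMIs of these tumors. Their collagens were mostly fibrillar, at 74.0, 77.0 and 63.5% of collagen UMIs. Col3a1 had 4283, 8411 and 911 CPM and Col1a1 1315, 3705 and 596, so that Col3a1 was above Col1a1 in every tumor. Col6a1 had 722, 1449 and 490.5, while Col8a1 had no UMI. A count of 0 over the 639539 UMIs of these cells allows at most 4.69 CPM at 3 counts.

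Schwann-like cells, the glia of peripheral nerve, were found in tumors 1 and 3 only, with 3 and 1 cells. Col5a2 had 2599 and 1333 CPM in them, Col4a1 2308 and 848 and Col1a1 1020.3 and 242. A further 38 stromal cells of low depth, with a median of 1493.5 UMIs, were left without a name. Their markers were scored against the other stromal cells only. The list with the most markers raised over these was that of tumor cells, with 8, and not that of a stromal type. In tumors 1, 2 and 3 their fibroblast markers summed to 7511, 4452 and 1286 CPM and their perivascular markers to 3872, 5565 and 5335. The tumor cell markers summed to 310, 1908 and 2501 in these low-depth cells and to 2615, 3831 and 4073 in tumor-like cells. Collagens made up 13474, 9222 and 11027 CPM of these cells.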
